A study of Mus musculus with 3 samples.

Results

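The genes measured in a mouse skeletal mesenchyme library carrying transcription-dead beta-catenin were compared with those of a control library, gene by gene. A gene entered the comparison when its mean over the 3 libraries of the study was at least 5 CPM (counts scaled to a library total of 1000000), which kept 12127 of the 43280 genes tabulated. Upp1 lay just inside this limit with a mean of 5.0 CPM, and D2hgdh lay just outside it. RNA was polyA RNA from primary cells of mesenchyme at stage E15.5, calvarial per the series' design text, and each of the 3 genotypes was represented by 1 library. The control was beta-catenin fx/fx with no Cre in its label. The library labelled dTF-cKO was beta-catenin fx/dm; Dermo1-Cre, and the library labelled cKO was beta-catenin fx/fx; Dermo1-Cre. The labels do not define dm, and as background it names a Ctnnb1 allele whose protein keeps its place in cell adhesion and lacks transcriptional output. No library was fx/dm without Cre, so the dm allele, the Cre and the loss of the fx allele cannot be told apart. The Twist2 locus drives Dermo1-Cre, which is active in mesenchyme from early development, and cells outside that lineage are not recombined. How many embryos went into a library is not stated in the labels.

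Beta-catenin, the product of Ctnnb1, has a pair of roles. At the membrane it links cadherins to alpha-catenin and the actin cytoskeleton, and in the nucleus it binds TCF and LEF factors and recruits co-activators to Wnt target genes. In skeletal mesenchyme, Wnt signalling through beta-catenin is known to favour osteoblasts over chondrocytes. A protein that keeps adhesion without transcription therefore separates those roles.

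With 1 library per genotype there is no test, and the 95% intervals below cover counting error only. Levels of a gene are given as 3 values in the order control, cKO, dTF-cKO, in CPM or in counts. Folds compare dTF-cKO with control. A gene is called higher or lower when its log2 difference, dTF-cKO minus control, was at least 1 in size, which is 2-fold. Fewer cells of a type and less RNA per cell cannot be told apart in these data. The libraries held 2678457 to 3634819 counts, so that 3 counts, the upper limit behind a 0, lay between 0.839 and 1.07 CPM. The control held 1233 counts of Xist and 0 counts over 4 genes of the Y chromosome, the dTF-cKO held 2 and 444, and the cKO held 0 and 362, so genotype and embryo sex cannot be told apart. Keratin genes, 51 in the tables, took 0.0156%, 2.15% and 1.79% of counts, so both mutant libraries held epithelial transcripts that the tissue label does not name. A pair of reference gene sets within the data placed the scale differently. Setting 61 stromal genes to no difference would add 1.86 to every log2 difference, and setting 75 ribosomal protein genes to no difference would subtract 1.35. The sign of any difference between -1.86 and 1.35 therefore depends on the scaling, and medians and folds inside those limits are given with that remark. A gene inside the 2-fold limit lies between those values, so the remark holds for it even where it is not repeated. The stromal genes are the measured members of the dermal, meningeal, smooth muscle and pericyte, and endothelial lists. Stroma scaling thus pulls the medians of those lists toward no difference by construction, and some of the genes are also in other lists.

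Ctnnb1, on mouse chromosome 9 from 120929216 to 120960507 in GRCm38 (GENCODE vM21, plus strand), was at 1026, 745 and 442 CPM. It was 2.32-fold lower in the dTF-cKO (95% counting interval 2.18 to 2.48), a difference whose sign turns under stroma scaling. Counts per gene do not separate the dm from the fx transcript. Twist2, whose locus carries the Cre, was at 5.87, 28.3 and 12.5 CPM, which is 2.13-fold higher in the dTF-cKO (1.21 to 3.85) and turns sign under ribosomal scaling.

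Of the 12127 genes, 4893 differed at least 2-fold between dTF-cKO and control (40.3%), 2363 of them upward (19.5%) and 2530 downward (20.9%), with a median log2 difference of 0.06. Stroma scaling gave 9269 higher and 535 lower (median 1.91), and ribosomal scaling 697 higher and 7331 lower (median -1.30). List counts and medians below are to be read against the values of all genes under the same scaling. At least 8-fold differences numbered 480 higher (3.96%) and 462 lower (3.81%). The counting interval excluded 1 for 4543 genes that were higher (37.5%) and 3909 that were lower (32.2%). The median was -0.42 among the 3032 genes with the lowest mean level and 0.43 among the 3032 with the highest. Lower genes were led by the bone protein Ibsp and included muscle myosins, while higher genes were led by epithelial genes such as S100a14, Cldn4 and Krt14. The counts of the 10 most abundant genes made up 25.5% of the control and 7.15% of the dTF-cKO library.

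**Figure D1:**
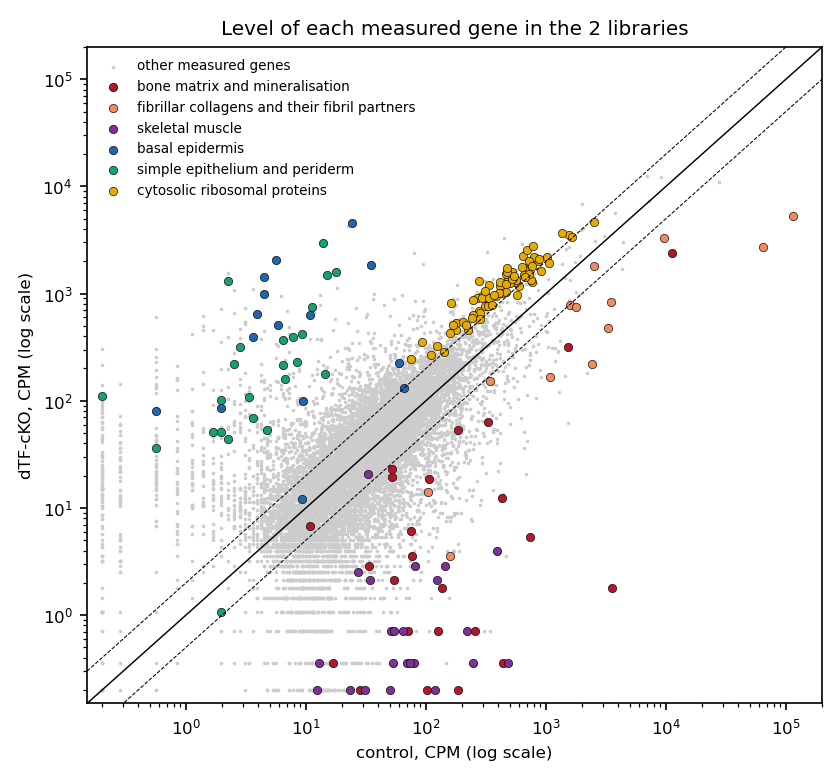
Level of each measured gene in the control (x axis, CPM, log scale) against the dTF-cKO (y axis, CPM, log scale), 1 point per gene, with 6 gene lists coloured, the line of equality and dashed lines at 2-fold; levels under 0.2 CPM are drawn at 0.2. Most bone matrix, collagen and muscle genes lie below the lower dashed line, and most epithelial and ribosomal protein genes above the upper one. For the ribosomal protein genes the side depends on the scaling.

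The genes of bone were lower for the most part. Of 24 measured genes of bone matrix and mineralisation, 23 were at least 2-fold lower and 0 were higher, with a median of -4.24 against 0.06 over all genes. Under stroma scaling 16 were lower and 1 higher (median -2.39). The same list had a median of -1.57 in the cKO library, which shares the control. Ibsp, bone sialoprotein of the mineralising matrix, was at 3532, 313 and 1.79 CPM. It was 1977-fold lower in the dTF-cKO (847 to 6090) and rested there on 5 counts. The order control, cKO, dTF-cKO recurred in the genes of mineralising matrix named next. These are among the 15 lowest genes, so their low dTF-cKO values follow from that choice. Alpl, the phosphatase that frees phosphate for mineral, was at 731, 144 and 5.36 CPM and was 136-fold lower in the dTF-cKO (82.5 to 244). Smpd3, a sphingomyelinase needed for bone mineralisation, was at 436, 70.7 and 0.357 CPM and was 1220-fold lower, from a single dTF-cKO count (219 to 48207). Dmp1, a matrix phosphoprotein of osteocytes, was at 258, 86.3 and 0.715 CPM and was 361-fold lower (99.6 to 2985). The channel gene Panx3 and the matrix gene Kazald1 had 0 counts in the dTF-cKO. Panx3 was at 183 CPM in the control and at least 171-fold lower, and Kazald1 was at 102 CPM and at least 95-fold lower. Other transporters and matrix genes among the 15 lowest belong to no gene list used here and are not counted as bone genes. They were Slc13a5, a citrate transporter (146, 18.4 and 0.357 CPM), Slc8a3, a sodium-calcium exchanger (122, 22.6 and 0 CPM), and Col22a1, a collagen of tissue junctions (468, 88.8 and 3.57 CPM). The remaining bone gene, Bglap2, an osteocalcin copy, was at 10.9 CPM in the control and 6.79 CPM in the dTF-cKO and is named after its value was seen. It has near-identical copies among which counts may be split.

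Osteoblast transcription factors were divided: of 15 measured, 10 were lower and 3 were higher, and their median of -1.62 turns to 0.24 under stroma scaling. Sp7, the factor that commits cells to the osteoblast, was at 305, 54.1 and 0.715 CPM, 427-fold lower (118 to 3534). Runx2, which acts upstream of Sp7, was at 143, 42.8 and 22.2 CPM, 6.47-fold lower (4.96 to 8.56). Dlx6, a homeobox gene of the jaw and skull, had 78 control counts and 0 dTF-cKO counts, at least 20.4-fold lower. Fosl2, an AP-1 factor chosen after its value was seen, went the other way, at 85, 156 and 476 CPM.

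The fibrillar collagens took 20.2%, 5.99% and 1.59% of all counts. Of 13 measured genes of the fibrils and their partners, 12 were lower, with a median of -2.69, and under stroma scaling 4 were lower and 1 higher (median -0.83). Col1a1, the main chain of bone and skin collagen, was at 114625, 22697 and 5254 CPM, 21.8-fold lower (21.5 to 22.2). Col1a2, its partner chain, was 23.9-fold lower (23.3 to 24.4). Col24a1, a minor fibrillar collagen of bone, was at 159, 31.8 and 3.57 CPM and was 44.4-fold lower (24.0 to 93.1). Col12a1, a fibril-associated collagen chosen after its value was seen, stood at 2533, 1663 and 1809 CPM, inside the 2-fold limit. Enzymes that fold and cross-link collagen were lower in 16 of 25, with a median of -1.60 that becomes 0.26 under stroma scaling. Loxl4, a lysyl oxidase that cross-links fibrils, was at 88.7, 14.9 and 2.14 CPM, 41.4-fold lower (18.8 to 114), and Creb3l1, a factor that drives collagen secretion in osteoblasts, was at 393, 158 and 53.2 CPM, 7.39-fold lower (6.24 to 8.81). Small leucine-rich proteoglycans, which coat fibrils, were lower in 8 of 10 (median -2.05), and under stroma scaling 2 were lower and 2 higher (median -0.20). Omd, osteomodulin of mineralised tissue, had 101 control counts and 0 dTF-cKO counts. Elastic and matricellular genes were lower in 16 of 24, with a median of -1.50 (0.35 under stroma scaling). Among them Emilin1, an elastic fibre glycoprotein, was at 680.0, 402 and 20.7 CPM, 32.8-fold lower (25.3 to 43.3).

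**Figure D2:**
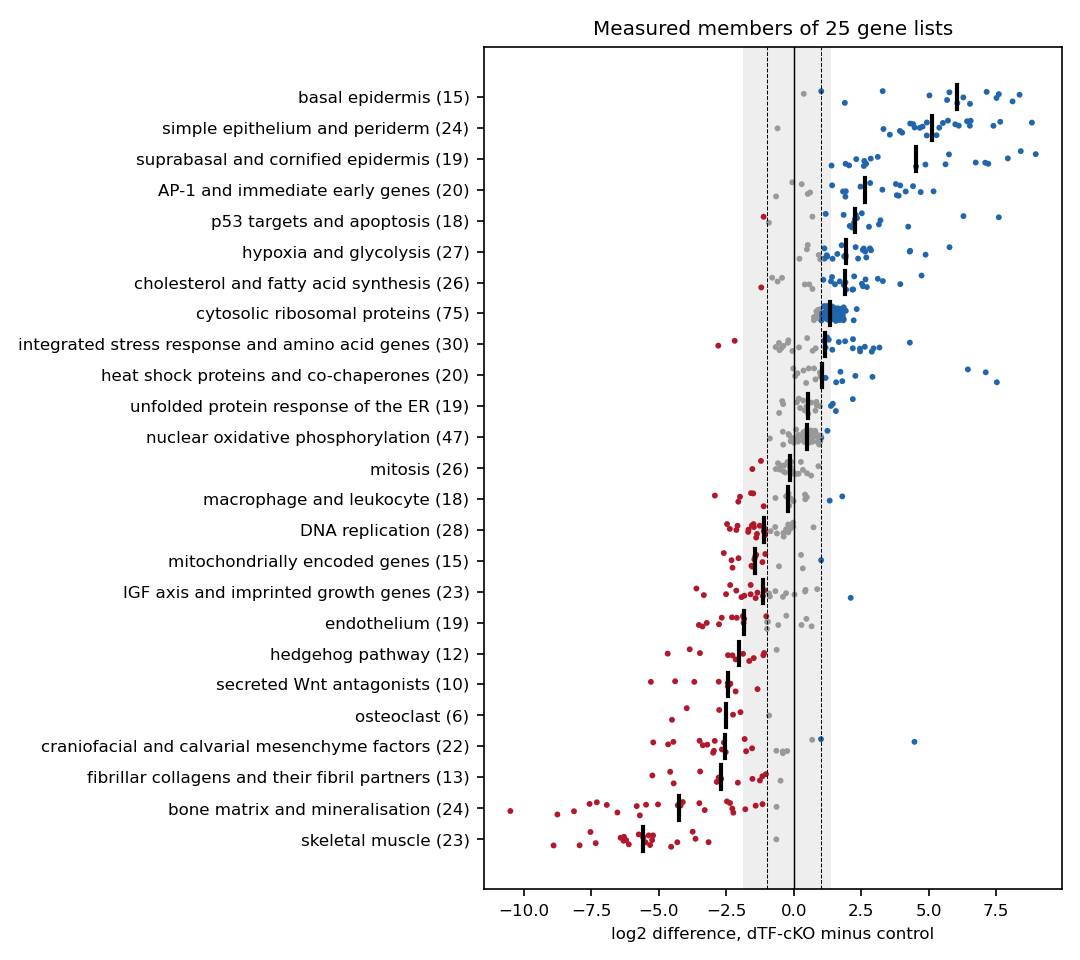
Log2 difference, dTF-cKO minus control (x axis), of each measured member of 25 gene lists (y axis, number measured in brackets); points at least 2-fold higher are blue, at least 2-fold lower red, others grey, and the black bar is the list median. The grey band from -1.86 to 1.35 holds differences whose sign turns under stroma or ribosomal scaling; the median bars of muscle, bone, collagen and calvarial factor lists lie left of it and those of epithelial, AP-1, p53, hypoxia and cholesterol lists right of it.

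The mesenchymal identity genes were lower with the matrix. Of 22 measured craniofacial and calvarial factors, 15 were lower and 2 were higher, and the median was -2.55 (-0.56 in the cKO). Under stroma scaling 9 were lower and 7 higher (median -0.70), against 535 lower and 9269 higher of all 12127 genes (median 1.91). The homeobox factor of the frontal and parietal bones, Alx4, was at 168, 89.1 and 3.93 CPM, 42.8-fold lower (23.8 to 86.3). En1, which marks early calvarial and dermal mesenchyme, was at 34.7, 11.7 and 2.50 CPM, 13.9-fold lower (6.53 to 35.2). Tfap2a, a factor of the neural crest that surface ectoderm also expresses, was the larger exception at 2.80, 41.7 and 76.1 CPM, 27.2-fold higher (14.5 to 57.6). Surface genes of mesenchymal cells were lower in 15 of 20 (median -2.17, against -0.37 in the cKO), and under stroma scaling 8 were lower and 5 higher (median -0.31). Pdgfra, the PDGF receptor of mesenchymal progenitors, was at 339, 219.7 and 42.5 CPM, 7.97-fold lower (6.6 to 9.71). Vim, the mesenchymal intermediate filament, was at 1939, 1248 and 2235 CPM and was chosen after its value was seen.

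Cartilage genes differed between the mutant libraries under the scaling used here, and the cKO median was not computed under the others. Their list median was -1.08 in the dTF-cKO, with 11 of 20 lower, and 0.97 in the cKO; the dTF-cKO median becomes 0.78 under stroma scaling. Acan, the aggrecan core protein of cartilage, was at 149, 273 and 3.93 CPM, 37.9-fold lower (21.0 to 76.5). Sox9, the factor that specifies cartilage, was at 46.4, 52.7 and 32.5 CPM and was chosen after its value was seen.

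Cadherins, the membrane partners of beta-catenin, differed by type. Cdh2, N-cadherin of mesenchyme and muscle, was at 170.3, 44.6 and 3.93 CPM, 43.3-fold lower (24.1 to 87.3). Cdh11, the cadherin of osteoblasts, was at 663, 493 and 36.1 CPM, 18.4-fold lower (15.1 to 22.6). Epithelial cadherin stood the other way: Cdh1 was at 36.4, 207 and 894 CPM, 24.6-fold higher (20.6 to 29.6). Jup, plakoglobin, a relative of beta-catenin in desmosomes and adherens junctions, was at 80.6, 775 and 858 CPM, 10.6-fold higher (9.42 to 12.1). Over the 17 genes of catenins and adherens junctions, 8 were higher and 6 lower, with a median of 0.72 (-0.63 under ribosomal scaling).

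Genes of the Wnt pathway did not move as a block. All 10 measured secreted antagonists were lower, with a median of -2.44, against -0.99 in the cKO, and under stroma scaling 3 of 10 were (median -0.58). Frzb, which binds and sequesters Wnt ligands, was at 38.9, 12.4 and 0.357 CPM, from 1 count. Dkk1, which blocks the LRP co-receptors and is itself a Wnt target, was at 43.1, 12.4 and 1.43 CPM, 30.1-fold lower (11.5 to 112). Sfrp2, another ligand-binding antagonist, was at 917, 599 and 168 CPM, 5.45-fold lower (4.95 to 6.02). Feedback targets, the genes that beta-catenin and TCF induce in many tissues, were lower in 8 of 17 and higher in 1, with a median of -0.77 that becomes 1.09 under stroma scaling. Tcf7, a DNA-binding partner that is also a target, was at 123, 31.5 and 6.43 CPM, 19.1-fold lower (11.9 to 32.4). Axin2, the feedback inhibitor most used as a readout, was at 35.0, 50.6 and 20.4 CPM, and Lef1, the other partner, at 11.2, 23.7 and 15.4 CPM. Both were inside the 2-fold limit, so their direction depends on the scaling, and both were chosen after their values were seen. Ligands were higher in 6 of 14 and lower in 3, and since 10 of the 14 reached 5 CPM in the control, the level limit sets this count in part. Wnt3 had 0, 47 and 389 counts, at least 166-fold higher in the dTF-cKO, and Wnt7a had 0, 7 and 84. Both ligands are known from surface epithelium as well as other tissues. Wnt4 was at 6.15, 131 and 140.4 CPM. Of the remaining pathway genes, Frizzled receptors and co-receptors were lower in 10 of 20 (median -1.02, or 0.84 under stroma scaling). The destruction complex and partners were lower in 7 of 25, or 2 of 25 under stroma scaling. Of all 12127 genes, 20.9% were lower, or 535 genes under stroma scaling.

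Hedgehog genes, which act between the skull bones and in the growth plate, were lower in 11 of 12, with a median of -2.01 against -0.27 in the cKO. Under stroma scaling 3 were lower and 1 higher (median -0.16). Gli1, the transcriptional readout of the pathway, was at 81.1, 38.9 and 5.0 CPM, 16.2-fold lower (9.51 to 30.0). Hhip, the antagonist that the pathway induces, was at 34.4, 14.9 and 2.50 CPM, 13.8-fold lower (6.48 to 34.9). Ihh, the ligand made by differentiating bone and cartilage cells, had 57, 7 and 0 counts. All 3 genes had the same order of libraries. They were named by the size of their dTF-cKO difference, so their low dTF-cKO values follow from that choice. Over the list, 3 of 12 genes were at least 2-fold lower in the cKO than in the control and 1 was higher. FGF genes were lower in 8 of 16, with a median of -1.02 (0.83 under stroma scaling). Fgf18, the ligand that drives calvarial osteogenesis, had 43, 13 and 0 counts. Fgfbp1, an FGF carrier that epithelia make, was at 1.68, 67.9 and 457 CPM, 272-fold higher (125 to 743). Across BMP and TGF-beta genes 12 of 32 were lower and 2 higher, or 3 lower and 18 higher under stroma scaling. Smad9, a BMP-activated transducer, had 74, 25 and 0 counts, and Tgfb3, a ligand of palate and suture mesenchyme, was at 180.4, 93.0 and 15.4 CPM, 11.7-fold lower (8.62 to 16.4). Notch genes were split, 4 higher and 5 lower of 14, or 8 higher and 3 lower under stroma scaling. Heyl, a target in vessel walls and mesenchyme, had 137, 160 and 1 counts, while the receptor Notch1 was at 90.3, 179.7 and 500.2 CPM, 5.54-fold higher (4.90 to 6.27), and the ligand Jag2 at 23.5, 60.1 and 211 CPM, 8.99-fold higher (7.14 to 11.4). Within the insulin-like growth factor axis and the imprinted growth genes, 13 of 23 were lower, with a median of -1.14 (0.72 under stroma scaling). Igfbp5, the binding protein of bone matrix, was at 2201, 1270 and 180.4 CPM, 12.2-fold lower (11.1 to 13.4). Igf2, the growth factor itself, stood at 7225, 6179 and 7377 CPM and was chosen after its value was seen.

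Markers of other cell types in the dissected tissue differed in both directions. Skeletal muscle had the lowest median of the 59 lists at -5.57 (-5.49 with genes at 0 counts taken at their bound), with 22 of 23 lower and summed shares of 0.246%, 0.0464% and 0.00413% of counts. Myh3, embryonic myosin heavy chain, was at 481, 77.5 and 0.357 CPM, and Ckm, muscle creatine kinase, at 120.0, 25.1 and 0 CPM. Of the 25 muscle genes listed, 6 had 0 counts in the dTF-cKO. Endothelial genes were lower in 11 of 19, with a median of -1.83, against 0.45 in the cKO. The dTF-cKO median becomes 0.02 under stroma scaling by construction, since these genes are in the stroma set. Kdr, the VEGF receptor of endothelium, was at 88.4, 136 and 7.15 CPM, 12.4-fold lower (7.87 to 20.5). Osteoclast genes were lower in 5 of 6 (median -2.50; 2 of 6 under stroma scaling), including Nfatc1, their master factor, at 112, 42.4 and 4.29 CPM, 26.1-fold lower (14.8 to 50.9). Macrophage genes were mixed, with 6 of 18 lower and 2 higher (1 lower and 12 higher under stroma scaling), against 20.9% lower and 19.5% higher of all genes. Csf1r, the growth factor receptor of macrophages, was at 104, 106 and 24.7 CPM, and Cd68, a lysosomal protein, at 23.2, 15.9 and 82.5 CPM. Smooth muscle and pericyte genes, also in the stroma set, were lower in 10 of 15 (6 under stroma scaling, with 5 higher). They were led by Cspg4, the pericyte proteoglycan, at 183, 117 and 4.64 CPM. In that list Acta2 and Tagln, contractile genes chosen after their values were seen, were higher, at 169, 187 and 887 CPM and at 51.5, 54.1 and 358 CPM. Red cell transcripts took a larger share of the dTF-cKO library: the 11 globin genes took 0.636%, 0.568% and 1.53% of counts. Of 9 measured erythroid genes, 4 were higher and 0 lower (median 0.98). Under ribosomal scaling 2 were higher and 3 lower (median -0.37), so the sign of this median depends on the scaling. The yolk-sac globins stood out among the globin genes, Hbb-y at 4.48, 5.66 and 158 CPM (35.2-fold higher, 21.4 to 62.1) and Hba-x at 7.27, 17.0 and 179 CPM (24.7-fold higher, 16.6 to 38.1). Adult globin genes have near-identical copies among which counts may be split. The part of these cell types in the other results was not tested.

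Epithelial genes led the higher genes, and they mark a tissue other than mesenchyme. Many of these genes passed the level limit through the mutant libraries, so their counts describe the libraries and carry no weight as a group result. Of 15 basal epidermal genes, 14 were higher and 9 reached 5 CPM in the control, with a median of 6.06. The simple epithelium and periderm list had 23 of 24 higher (11 at 5 CPM in the control), with a median of 5.12. All 19 measured genes of the suprabasal and cornified layers were higher (2 at 5 CPM in the control), with a median of 4.54, or 4.47 with genes at 0 counts taken at their bound. The part of this tissue in the other results was not tested.

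The mutant libraries held different epithelial genes. Krt5, the basal keratin, was at 24.1, 2037 and 4524 CPM, 188-fold higher (152 to 235). Krt14, its pairing partner, was at 5.59, 1078 and 2068 CPM, 369.7-fold higher (239 to 606). Col17a1, a hemidesmosome collagen of basal cells, was at 3.92, 300.3 and 648 CPM, 166-fold higher (98.4 to 304). The basal genes were thus high in both mutant libraries. The keratins and envelope proteins of differentiating layers were much higher in the cKO than in the dTF-cKO, and those named next were chosen after their values were seen. Krt1 was at 4.48, 5869 and 36.4 CPM. Krt10, its pairing partner, was at 5.87, 6947 and 322 CPM, and the envelope protein Lor at 3.36, 2550 and 23.9 CPM. Dsc1, the desmocollin of these layers, had 2, 543 and 1 counts. Keratins of wounded and simple epithelium had the opposite order. Krt16, a keratin induced in stressed epidermis, had 0, 31 and 597 counts, at least 254-fold higher in the dTF-cKO. Krt17, which is induced with it, was at 4.48, 36.4 and 1417 CPM, 317-fold higher (195 to 555). Sprr1a, a cornified envelope precursor that is also induced in stressed epithelium, was at 2.52, 57.3 and 1081 CPM, 429-fold higher (226 to 939.8). Simple epithelial keratins and surface genes were likewise highest in the dTF-cKO. Krt8 was at 15.1, 41.0 and 1486 CPM, 98.4-fold higher in the dTF-cKO (75.2 to 131), and Krt7 at 14, 235 and 2949 CPM, 211-fold higher (159.8 to 284). Cldn4, a tight junction claudin, was at 2.24, 102 and 1314 CPM, 587-fold higher (298 to 1361). Upk1b, a uroplakin of superficial epithelial cells, was at 1.40, 110.4 and 622 CPM, 445-fold higher (190.2 to 1372). S100a14, a calcium-binding protein of epithelia, led all genes by the lower bound of its interval, at 2.24, 204 and 1543 CPM, 689.6-fold higher (349.7 to 1598). Lypd3, a surface protein of stratified epithelium, had 0, 357 and 849 counts. Closely related keratins share sequence, so counts may be split among them.

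**Figure D3:**
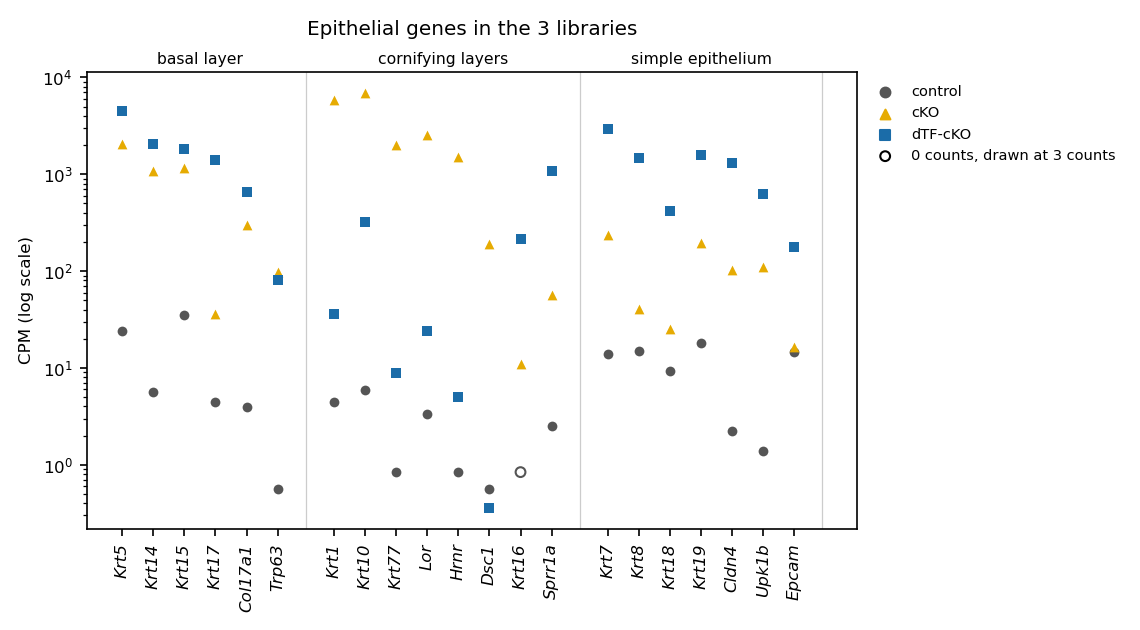
CPM (y axis, log scale) of 21 epithelial genes (x axis) in the control (grey circles), cKO (yellow triangles) and dTF-cKO (blue squares) libraries, 1 value each with no error bar; open symbols are 0 counts drawn at the level of 3 counts. Basal genes are high in both mutant libraries, Krt1 and Lor are highest in the cKO, and Krt8 and Krt18 are highest in the dTF-cKO.

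Genes of hypoxia and glucose use were higher for the most part. The list had 22 of 27 higher and 0 lower, with a median of 1.93 in the dTF-cKO against 0.61 in the cKO. Under ribosomal scaling 11 were higher and 1 lower (median 0.57). Epithelial lists differed between the mutant libraries as well: basal epidermal genes took 0.0240%, 0.667% and 1.32% of counts, simple epithelial genes 0.0145%, 0.215% and 1.08%, and suprabasal genes 0.00319%, 2.55% and 0.374%. The part of epithelial cells in the hypoxia genes was not tested. Slc2a1, the widely expressed glucose transporter that hypoxia-inducible factors raise, was at 79.7, 314 and 2380 CPM, 29.8-fold higher (26.5 to 33.7). Slc2a3, a high-affinity transporter, was at 11.7, 96.9 and 678 CPM, 57.7-fold higher (42.5 to 80.4). Adm, a vasodilator peptide that hypoxia induces, was at 5.03, 10.6 and 111 CPM, 22.1-fold higher (13.8 to 37.9). Vegfa, the angiogenic growth factor, was at 78.3, 99.0 and 467 CPM, 5.96-fold higher (5.23 to 6.80), beside the lower level of its receptor Kdr given above. The steps of glycolysis shared the direction: of 15 transporters and enzymes followed from uptake to lactate, 13 were at least 2-fold higher and 0 lower. Aldoa, aldolase, was at 449, 686 and 3280 CPM, 7.31-fold higher (6.93 to 7.71), and Pgk1, phosphoglycerate kinase, at 85.9, 197 and 612 CPM, 7.13-fold higher (6.31 to 8.08). Hk1, the constitutive hexokinase, chosen after its value was seen, was at 104, 109 and 121 CPM.

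Cholesterol and fatty acid synthesis genes were higher in 19 of 26 and lower in 1, with a median of 1.89 against 0.71 in the cKO. Under ribosomal scaling 8 were higher and 4 lower (median 0.54). Hmgcs1, the synthase that opens the mevalonate route, was at 61.8, 101 and 409 CPM, 6.61-fold higher (5.72 to 7.67), and Msmo1, a late sterol oxidase, at 15.9, 47.8 and 256 CPM, 16.1-fold higher (12.3 to 21.4). Of 15 enzymes followed from Hmgcs1 to the last reductases, 14 were higher. The exception was Mvk, mevalonate kinase, at 28.0, 55.5 and 11.8 CPM, 2.37-fold lower (1.59 to 3.63), chosen after its value was seen and higher under stroma scaling. The 250 bases before the start of Hmgcs1 are shown with the match to a sterol regulatory element, TCACNCCAC searched on both strands, in capitals. It was the 1 gene of 18 list genes with a promoter entry to hold a match (5.56%), against 1.26% of 8796 measured genes with an entry. Sequences are from RefSeq GRCm38.p6.
Hmgcs1 chr13:119690101-119690350, plus strand: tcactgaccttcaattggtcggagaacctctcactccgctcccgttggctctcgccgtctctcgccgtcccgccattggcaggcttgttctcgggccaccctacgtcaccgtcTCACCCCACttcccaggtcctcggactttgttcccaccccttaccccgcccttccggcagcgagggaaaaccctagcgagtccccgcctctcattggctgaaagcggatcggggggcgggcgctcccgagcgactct

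**Figure D4:**
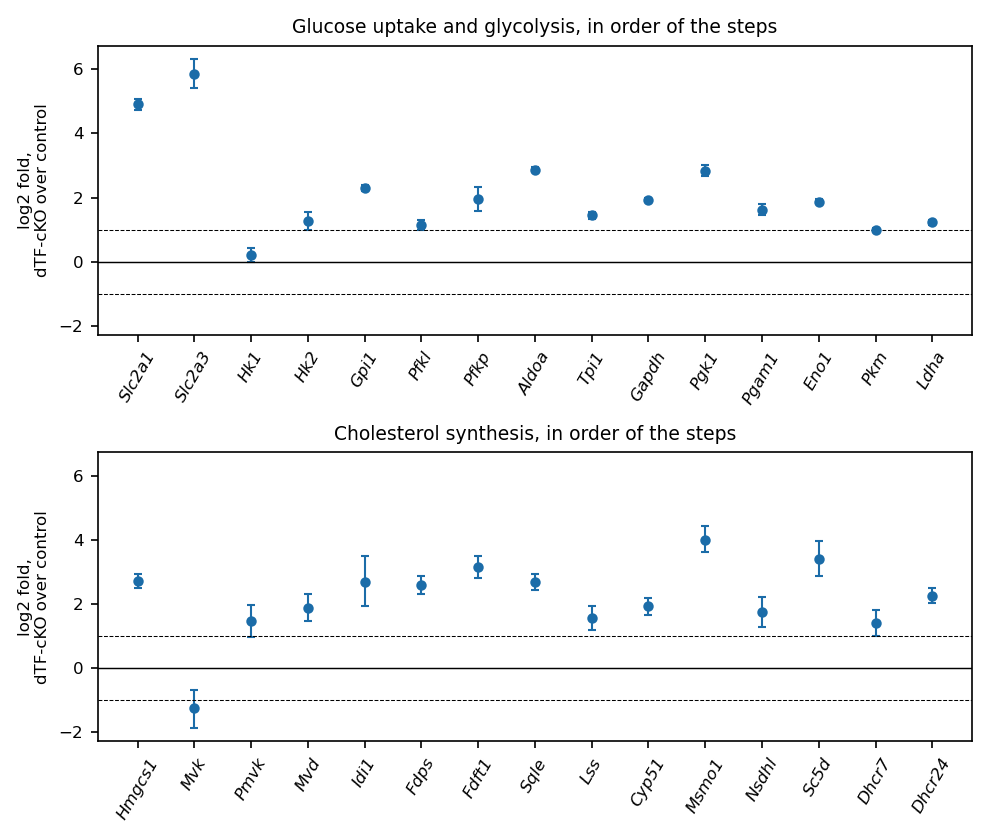
Log2 fold, dTF-cKO over control (y axis), of the 15 genes of glucose uptake and glycolysis (top) and 15 enzymes of cholesterol synthesis (bottom), in the order of the steps (x axis); bars are 95% counting intervals and dashed lines mark 2-fold. All but Mvk lie above 0, and those under 1.35 would lie below 0 under ribosomal scaling.

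Heat shock and metal-response genes included some of the highest values. Of 20 heat shock proteins and co-chaperones, 10 were higher and 0 lower, with a median of 1.04 against 0.06 over all genes. Under ribosomal scaling these medians become -0.31 and -1.30, so the sign of the list median depends on the scaling. Hspb1, a small heat shock protein of muscle and epithelium, was at 22.4, 508 and 4258 CPM, 190.3-fold higher (153 to 240.1). Hspa1a, inducible HSP70, was at 3.08, 42.1 and 517 CPM, 168-fold higher (93.6 to 337), and Hspa1b, a near-identical copy with which it may share reads, at 4.48, 82.4 and 449 CPM. A pseudogene of Hspb1, Hsp25-ps1, held 10, 100 and 1085 counts, so reads may also be split there. By contrast the co-chaperone Bag3 was at 79.4, 50.2 and 78.6 CPM; it and the pseudogene were chosen after their values were seen. The heat shock element, GAANNTTC, reads the same on both strands. It was present in the 250-base window of 7 of 16 list genes with an entry (43.75%), against 5.84% of the 8796 measured genes. The 7 include both Hspa1a and its near-identical copy Hspa1b, so they are not independent. A gene with several windows, in the list or among all genes, counted if any of them held a match. The windows of Hspa1a and Hspb1, the 2 highest of the list, are shown with matches in capitals, 1 in the first and 2 in the second.
Hspa1a chr17:34972157-34972406, minus strand: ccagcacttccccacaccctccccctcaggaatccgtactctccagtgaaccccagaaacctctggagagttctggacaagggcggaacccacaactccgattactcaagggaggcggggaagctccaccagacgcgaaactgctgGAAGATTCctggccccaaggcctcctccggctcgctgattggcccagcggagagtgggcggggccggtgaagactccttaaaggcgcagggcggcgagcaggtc
Hspb1 chr5:135887669-135887918, plus strand: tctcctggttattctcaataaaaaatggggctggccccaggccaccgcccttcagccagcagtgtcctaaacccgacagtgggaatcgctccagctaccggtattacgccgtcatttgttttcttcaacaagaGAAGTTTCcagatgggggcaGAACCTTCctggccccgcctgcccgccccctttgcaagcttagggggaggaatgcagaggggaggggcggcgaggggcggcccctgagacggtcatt

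Of 6 measured metallothioneins and metal-handling genes, 5 were higher (2 under ribosomal scaling, with 1 lower). Mt1 and Mt2 encode the metallothioneins that bind zinc and copper. Mt1 was at 13.1, 32.9 and 775 CPM, 59.0-fold higher (44.2 to 80.5), and Mt2 at 6.99, 13.1 and 689.6 CPM, 98.6-fold higher (66.6 to 153). Oxidative stress genes were higher in 11 of 18, with a median of 1.18 (1.09 with genes at 0 counts taken at their bound, -0.17 under ribosomal scaling). Hmox1, heme oxygenase, was at 26.0, 73.6 and 730.0 CPM, 28.1-fold higher (22.8 to 34.9). Gstm1, a glutathione transferase, was the lower exception at 117, 30.8 and 28.2 CPM, 4.13-fold lower (3.24 to 5.33). Integrated stress response genes were higher in 16 of 30 and lower in 2, with a median of 1.15 (-0.20 under ribosomal scaling). Atf3, a stress-induced factor, was at 3.92, 3.89 and 89.7 CPM, 22.9-fold higher (13.4 to 42.5), and Ddit3, a factor of the same arm that promotes cell death, at 12.3, 12.7 and 95.8 CPM, 7.78-fold higher (5.64 to 11). Chac1, which degrades glutathione and is a target of the same arm, was lower at 18.7, 1.06 and 2.14 CPM (8.74-fold, 3.81 to 24.7). Hspa5, the main chaperone of the endoplasmic reticulum, was at 636, 513 and 2903 CPM, 4.57-fold higher (4.36 to 4.79), while its list, the unfolded protein response, was higher in 4 of 19, near the 19.5% of all genes, and under ribosomal scaling in 0, with 6 lower (median -0.81).

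Targets of p53 and genes of apoptosis were higher in 15 of 18 and lower in 1, with a median of 2.29 against 0.18 in the cKO. Under ribosomal scaling 7 were higher and 2 lower (median 0.94). Cdkn1a, the inhibitor p21 that halts the cell cycle, was at 94, 168 and 845 CPM, 8.99-fold higher (8.02 to 10.1). Pmaip1, the death-promoting protein NOXA, was at 4.2, 11.3 and 379 CPM, 90.4-fold higher (54.5 to 162). Zmat3, an RNA-binding target, was at 21.8, 34.0 and 208 CPM, 9.55-fold higher (7.53 to 12.3). Perp is a desmosomal protein of epithelium as well as a p53 target, and it was at 4.48, 788 and 996 CPM. The inhibitors Cdkn2a and Cdkn2b, which mark senescence and stressed growth, had 0, 2 and 84 counts and 1, 7 and 79 counts. Ccnd1, cyclin D1, a growth cyclin that Wnt signalling can raise, was at 248, 138 and 14.6 CPM, 16.9-fold lower (12.4 to 23.7). DNA replication genes were lower in 16 of 28 and higher in 0, with a median of -1.09 that becomes 0.77 under stroma scaling. Cdc6, which loads the replicative helicase, was at 19.3, 13.8 and 3.22 CPM, 6.0-fold lower (2.99 to 13.7). Mitosis genes were lower in 2 of 26 and higher in 0 (median -0.13), against 20.9% lower and 19.5% higher of all genes. Under ribosomal scaling 23 were lower and 0 higher, and under stroma scaling 24 were higher and 0 lower. The direction of this list therefore depends on the scaling.

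Immediate early genes of the AP-1 group, which respond to growth factors and wounding, were higher in 15 of 20 and lower in 0, with a median of 2.66 against 0.82 in the cKO. Under ribosomal scaling 11 were higher and 3 lower (median 1.30). Fos was at 12.6, 87.4 and 235 CPM, 18.6-fold higher (13.8 to 25.8). Fosl1, an AP-1 factor induced later, had 1, 0 and 93 counts. Zfp36, which destabilises cytokine messenger RNA, was at 16.8, 60.5 and 455 CPM, 27.1-fold higher (20.9 to 35.7). Of 21 inflammatory genes listed, 7 were measured and 4 of those reached 5 CPM in the control; 5 were higher, a count that the level limit sets in part. Ptgs2, cyclooxygenase 2, had 5, 5 and 150 counts, and Tnf, the cytokine, had 1, 2 and 66. Nfkbia, the inhibitor that NF-kB induces, was at 37.2, 65.8 and 429 CPM, 11.5-fold higher (9.64 to 13.9). Interferon response genes were higher in 8 of 12, with a median of 1.34 (-0.02 under ribosomal scaling). Cxcl10, an interferon-induced chemokine, had 0, 1 and 223 counts, at least 94.9-fold higher. H2-K1, a class I antigen gene with close relatives, was at 20.1, 25.5 and 236 CPM.

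**Figure D5:**
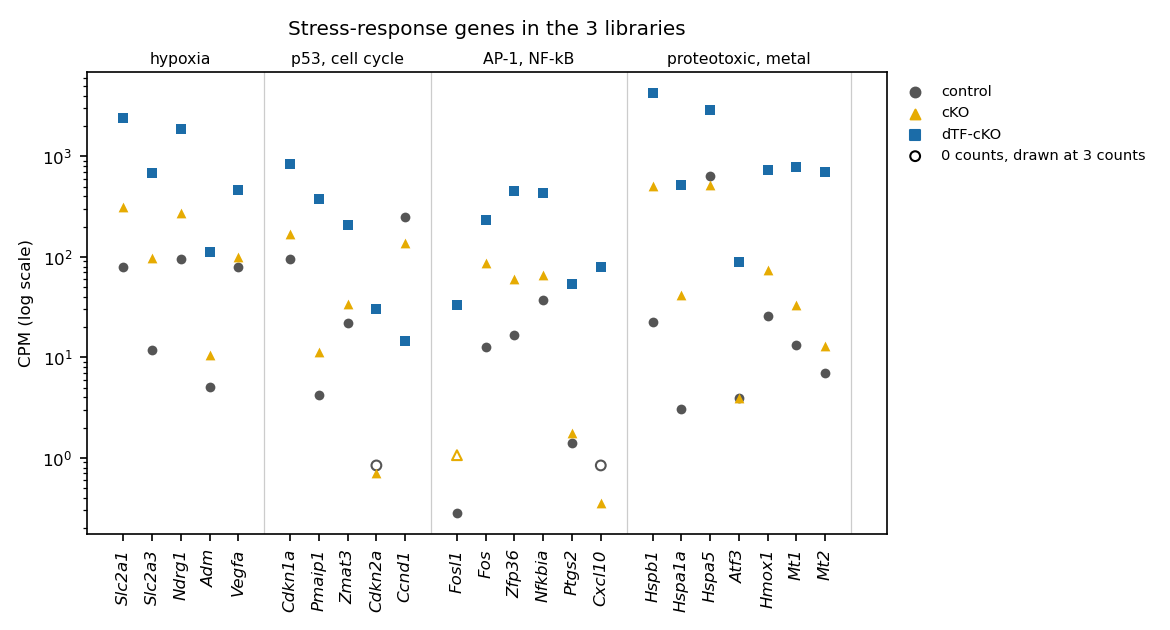
CPM (y axis, log scale) of 23 stress-response genes (x axis) in the control (grey circles), cKO (yellow triangles) and dTF-cKO (blue squares) libraries, 1 value each with no error bar; open symbols are 0 counts drawn at the level of 3 counts. Apart from Ccnd1, the dTF-cKO value is the highest of the 3 for every gene drawn. The genes are a selection, and members of the same lists that were lower or level, such as Chac1, Gstm1 and Bag3, are not drawn.

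Ribosomal protein genes, which make up the cytosolic ribosome, were at least 2-fold higher in 68 of 75 and lower in 0, with a median of 1.35 that is 0 under ribosomal scaling by construction and 0.37 in the cKO. They took 3.90%, 5.36% and 9.59% of counts. The share taken by collagen was lower in the same order of libraries, and shares of 1 total cannot move independently. Members ranged from 0.75 to 2.33 in log2 difference, and many have processed pseudogenes that may share reads. Rpl29, of the large subunit, was at 163, 301 and 824 CPM, 5.06-fold higher (4.62 to 5.55). Nuclear genes of oxidative phosphorylation lay closer to 0, with a median of 0.49 (-0.86 under ribosomal scaling) and 2 of 47 higher. Genes encoded by the mitochondrion were lower in 11 of 15 and higher in 1, with a median of -1.43 that becomes 0.43 under stroma scaling and was 0.22 in the cKO. Within them mt-Co2, a subunit of cytochrome oxidase, was at 262, 97.6 and 54.0 CPM, 4.86-fold lower (4.09 to 5.81), while mt-Co1, the catalytic subunit of the same complex, chosen after its value was seen, was at 2585, 3004 and 3123 CPM. Genes with short transcripts were placed higher in the dTF-cKO library: the median was 0.21 in the fifth of genes with the shortest and -0.21 in the fifth with the longest transcripts, against 0.07 and 0.02 in the cKO. Ribosomal protein genes have short transcripts and fibrillar collagens long ones, and the part of transcript length in their values was not tested.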

How the data were processed

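The 3 deposited tables hold raw read counts per gene under a header reading Count, with no normalization, as deposited by the authors. The genome build named in the submitters' processing notes is mm10, and how reads were aligned and counted, and whether by strand, is not given in the sources used here. Counts were scaled with TMM factors of all 3 libraries in edgeR 4.0.16 (0.984, 1.06 and 0.963 for control, cKO and dTF-cKO), and the prior count for log2 CPM was 2. Folds divide scaled counts with no prior, with exact conditional (Clopper-Pearson) 95% intervals. The labels name no molecular identifiers, so reads may repeat a molecule, and limits and intervals hold counting error alone. Against 0 counts, folds were computed with 3 counts in that library and are lower bounds. With 1 library per genotype no test was run, and the step was tested on simulated data.

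Each of 59 gene lists was described by its counts and median. The genes named are Ctnnb1, Twist2, the 15 highest and 15 lowest by the bound of the interval nearest to 1, and up to 6 genes per list by size of log2 difference, or its 2 most abundant members if under 2 were called. The members and lists were chosen with earlier results of these data known. Of 43280 symbols, 27 had been turned into dates and are not named. Alternatives changed the scaling, prior count, level limit, size rule and gene set.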

Additional observations from a re-analysis of the deposited data

How the results depend on the processing

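The scaling decided most. Under stroma scaling 9269 genes were higher and 535 lower, with an all-gene median of 1.91, and under ribosomal scaling 697 and 7331, with a median of -1.30. With totals that left out the 33 genes among the 20 most abundant of any library, 1648 genes were higher and 3728 lower. The median was then -0.33. With no level limit 4619 genes were lower and the median was -0.10, with a limit of 20 CPM 1228 and 0.23, and with a limit in the control alone the median was -0.075. A 1.5-fold rule gave 3791 higher, a 3-fold rule 1255 higher and 1586 lower, and an interval that excludes 1 gave 4543 and 3909. Of 59 list medians, 17 of those at least 1 in size turned sign under stroma or ribosomal scaling, and 0 under another alternative. Under stroma scaling these became 0.24 for osteoblast factors, 0.26 for collagen folding, 0.35 for elastic matrix, 0.78 for cartilage, 0.84 for Frizzled receptors, 0.83 for FGF, 0.72 for the IGF axis, 0.0065 for tendon, 0.064 for meninges, 0.022 for endothelium, 0.77 for DNA replication and 0.43 for mitochondrially encoded genes. The meningeal and endothelial lists are part of the stroma set, so their values follow by construction. Under ribosomal scaling the medians became -0.20 for the integrated stress response, -0.31 for heat shock, -0.17 for oxidative stress, -0.016 for interferon and -0.066 for noncoding RNA. Of 124 named genes at least 2-fold different, 3 turned sign, and the 12 others named each turned under at least 1 scaling. Most of the 124 were chosen by the size of their difference. A gene outside -1.86 to 1.35 cannot turn under stroma or ribosomal scaling, so the count of 3 does not describe genes in general. Ctnnb1 became 0.64 and Mvk 0.65 under stroma scaling, and Twist2 -0.34 under ribosomal scaling. No paired analysis was possible because each genotype had 1 library, and no library could be left out. The spread between embryos is unknown, and at this depth a gene with 0 counts may reach 1.07 CPM in the dTF-cKO.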

Other observations

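Several further groups were measured, and of all genes 19.5% were higher and 20.9% lower. Desmosome genes were higher in 12 of 13 (2 at 5 CPM in the control), and genes of squamous stress in 18 of 19 (9 at 5 CPM in the control). Hypertrophic cartilage genes were lower in 5 of 6 (median -3.73), dermal genes in 11 of 14 (median -2.04; 3 of 14 under stroma scaling), meningeal genes in 12 of 16 (median -1.79, or 0.06 under stroma scaling) and tendon genes in 4 of 7 (median -1.85, or 0.01 under stroma scaling). The dermal and meningeal lists are part of the stroma set, so their values under that scaling follow by construction. Among the meningeal genes Foxc2, a mesenchymal forkhead factor, had 77, 42 and 1 counts in the control, cKO and dTF-cKO. S100a6, a calcium-binding protein of the same list, had 113, 310 and 1689. Adipocyte genes were higher in 3 and lower in 3 of 8. Melanocyte genes were higher in 3 and lower in 1 of 7, and Pmel, a pigment-granule protein, had 16, 155 and 126 counts. Schwann cell and nerve genes were higher in 2 and lower in 3 of 9: Fabp7, a fatty acid binding protein of glial precursors, had 248, 12 and 2 counts, while the myelin gene Mbp had 41, 60 and 208. Erythroid genes were higher in 4 of 9 (median 0.98, or -0.37 under ribosomal scaling).

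Proteasome genes were higher in 7 of 31 and lower in 0 (median 0.69, or -0.66 under ribosomal scaling). Genes of YAP and the actin cytoskeleton were higher in 4 of 24 (median 0.37, or -0.98 under ribosomal scaling). Both shares are near the 19.5% of all genes. The YAP list includes Cyr61, a secreted YAP target, at 62.7, 123 and 976 CPM (15.6-fold higher, 13.6 to 17.9). Cyclins, Myc and inhibitors of cyclin-dependent kinases were higher in 6 and lower in 4 of 16. Long noncoding and nuclear RNAs were higher in 5 of 9 (median 1.29, or -0.07 under ribosomal scaling), with Neat1, the scaffold of paraspeckles, at 14.8, 52.0 and 84.0 CPM. Of 18 placental and embryonic stem cell genes listed, 5 were measured, 2 higher and 1 lower. The lower gene was Ttr, transthyretin, which choroid plexus and liver also make, at 283, 577 and 10.7 CPM, 26.4-fold lower in the dTF-cKO (18.4 to 39.3).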
